A study of Homo sapiens with 6 samples.

Results

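The peroxisome proliferator-activated receptors (PPARs) and a small group of genes that work with them or answer to them were followed in cells labelled HT29. Cells with and without knockdown of HMGA1 were compared. The group holds 9 genes, taken from the 31164 rows of the deposited table by gene name: the receptors PPARA, PPARD and PPARG, their partner RXRA, the coactivator PPARGC1B, and the target genes ANGPTL4, PDK4, CPT1A and ACADM. All 9 were found, 1 row each, and all 9 were expressed at a mean of at least 1 FPKM (fragments mapped to a gene, scaled to its length and to the size of the library), the level required for testing. The cells are labelled HT29, an established human colorectal cancer line, and were grown in DMEM with fetal bovine serum and antibiotics, with no further treatment. Of the 6 libraries, 3 are controls, named shNC and given the genotype WT, and 3 are stable HMGA1 knockdowns, named shHMGA1. Which hairpin was used, whether each line was a pool or a clone, and whether replicates were grown separately is not in the labels. A p-value here is therefore set against variation among libraries that could be purely technical.

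PPARs are nuclear receptors that sense fatty acids and their derivatives. Each pairs with a retinoid X receptor such as RXRA, binds DNA at a pair of AGGTCA half-sites set 1 base apart, and recruits coactivators of the PGC-1 family or releases corepressors to turn on genes for the uptake, storage and burning of lipids. PPARA is best known for fatty acid oxidation in liver, PPARD is found in most tissues, and PPARG, the receptor that drives fat cell formation, is also abundant in the epithelium of the colon.

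HMGA1, the chromatin protein targeted here, stood at 785, 810 and 854 FPKM in the controls and at 465, 565 and 508 in shHMGA1 replicates 1 to 3, so the knockdown left 62.8% of its RNA. Totals per library ran from 807156 to 838067 FPKM. Read depth is unknown. A rough estimate from low values, relative to shNC replicate 1, was 0.839 and 0.856 for shNC replicates 2 and 3. It was 0.691, 0.823 and 0.781 for shHMGA1 replicates 1 to 3. Every knockdown library was thus below every control, and more of its genes were at 0 (6807 to 7116, against 5747 to 6542). Depth by this estimate cannot be told apart from the knockdown, and its part in the changes of low genes was not tested. The library shHMGA1 replicate 1 was lowest in this estimate, had the most genes listed at 0 (7116, against 5747 to 6851 in the others) and stood apart from the other knockdown libraries on the second principal component (18.3% of the variance), so the fold changes of the 9 genes are also given without it. Of 13 markers of colon epithelium, 6 did not reach a mean of 1 FPKM: CDX1, VIL1, CDH17, LGALS4, CEACAM5 and GPA33 were at 0.22 FPKM or less in every library, although HT29 is known for several of them, whereas EPCAM (194 to 272 FPKM), CDX2 (7.12 to 8.97 FPKM) and the keratins KRT8, KRT18 and KRT19 (723 to 1565 FPKM) were present. Each list of markers of other cell types had 1 gene at a mean of 1 FPKM or more. These were CFD of 6 fat cell markers in the table, COL1A1 of 5 fibroblast markers, CD68 of 6 markers of leukocytes and endothelium, which did not pass the test, and SERPINA1 of 5 hepatocyte markers, which fell from 9.15 ± 0.699 to 2.45 ± 0.186 FPKM (limma adjusted p = 0.000252). The summed level was 50.1 to 53.7 FPKM in the controls and 42.5 to 53.5 in the knockdown for fat cells, 11.1 to 11.8 and 7.56 to 12.2 for fibroblasts, 1.7 to 2.1 and 1.63 to 2.3 for leukocytes and endothelium, and 8.73 to 10.4 and 2.99 to 3.13 for hepatocytes. The defining markers ADIPOQ, LEP and PTPRC were at 0.01 FPKM or less in every library. The part of these markers in the results was not tested, and neither was the identity of the line.

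RNA for all 3 PPAR receptors fell in the knockdown cells. PPARA fell to 47.4%, PPARG to 58.2% and PPARD to 75.9% of the control level. Among the target genes, ANGPTL4 fell to 36.5% and CPT1A to 85.6%, while ACADM rose to 133%. Tested as log2(FPKM + 1) with limma and adjusted by the Benjamini-Hochberg method over 14304 genes, 5 of the 9 fell, 1 rose and 3 (PPARGC1B, RXRA and PDK4) did not pass at an adjusted p under 0.05. Of all genes tested, 12.3% fell, 16.1% rose and 28.4% did either by the same rule. The libraries of the 2 groups did not overlap for 6 genes that were lower in the knockdown and 2 that were higher, where 20.5% and 25.4% of all genes tested were separated in these directions. The median log2 fold change of the 9 was -0.32, beside 0.02 for all genes tested. The 9 genes were chosen with results of these data known, so these counts describe them and are no test of the group. In RNA from bulk cells, fewer cells making a transcript and less of it per cell cannot be told apart.

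**Figure D1:**
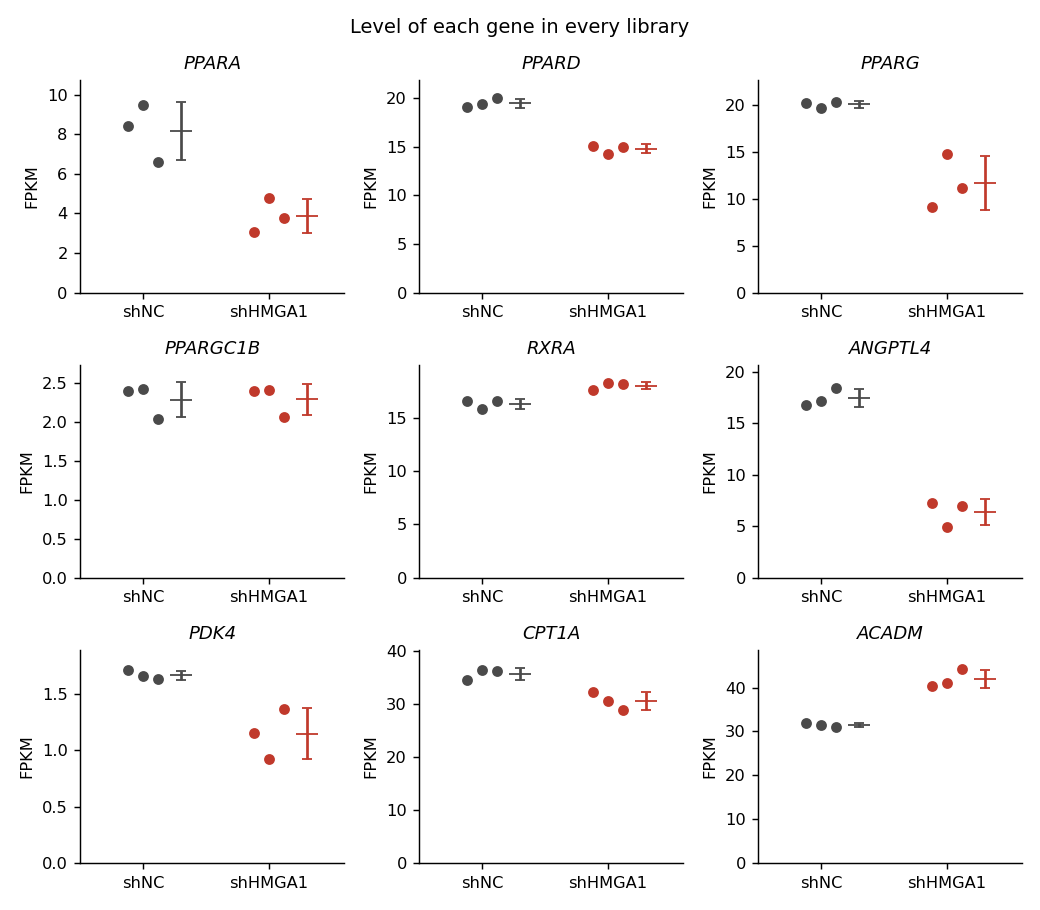
FPKM of each of the 9 genes in every library, with the group mean and SD (n = 3) beside the points and each vertical axis starting at 0. The knockdown points lie below every control point for PPARA, PPARD, PPARG, ANGPTL4, PDK4 and CPT1A, above them for RXRA and ACADM, and among them for PPARGC1B.

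Promoters are shown first, to set the start regions of the 3 receptors that fell beside those of ANGPTL4 and ACADM, the genes with the lowest and the highest fold change. The promoter of CPT1A, which also fell, is described but not shown. The RefSeq promoter table (GRCh38.p14), which gives 250 bases before and 50 after each annotated start, held all 9 genes with 16 starts. The letters are in lower case, 5′ to 3′, and the capitals mark the longest unbroken run of A or T, because HMGA1 is known to bind AT-rich DNA. PPARG has 6 annotated starts, of which 2 are shown, including the one farthest downstream. The table of gene levels does not say which start these cells used.
PPARA (chr22:46150276-46150575, plus strand): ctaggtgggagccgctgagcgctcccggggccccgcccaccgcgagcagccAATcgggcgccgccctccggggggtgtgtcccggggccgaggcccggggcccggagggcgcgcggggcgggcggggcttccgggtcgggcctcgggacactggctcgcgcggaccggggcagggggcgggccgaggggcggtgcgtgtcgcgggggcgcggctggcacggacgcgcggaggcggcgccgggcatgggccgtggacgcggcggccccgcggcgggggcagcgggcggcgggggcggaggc
PPARD (chr6:35342308-35342607, plus strand): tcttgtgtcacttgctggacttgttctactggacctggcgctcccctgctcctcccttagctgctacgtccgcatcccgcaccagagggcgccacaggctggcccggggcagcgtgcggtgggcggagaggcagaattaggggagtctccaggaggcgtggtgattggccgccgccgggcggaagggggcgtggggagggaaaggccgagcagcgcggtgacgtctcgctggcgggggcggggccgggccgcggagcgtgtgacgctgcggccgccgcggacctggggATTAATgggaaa
PPARG (chr3:12288810-12289109, plus strand): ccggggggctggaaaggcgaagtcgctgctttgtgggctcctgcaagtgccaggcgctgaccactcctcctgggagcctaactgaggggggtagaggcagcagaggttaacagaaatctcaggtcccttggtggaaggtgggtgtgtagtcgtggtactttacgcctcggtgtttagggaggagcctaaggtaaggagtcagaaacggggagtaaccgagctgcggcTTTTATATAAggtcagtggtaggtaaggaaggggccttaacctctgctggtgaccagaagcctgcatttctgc
PPARG (chr3:12351167-12351466, plus strand): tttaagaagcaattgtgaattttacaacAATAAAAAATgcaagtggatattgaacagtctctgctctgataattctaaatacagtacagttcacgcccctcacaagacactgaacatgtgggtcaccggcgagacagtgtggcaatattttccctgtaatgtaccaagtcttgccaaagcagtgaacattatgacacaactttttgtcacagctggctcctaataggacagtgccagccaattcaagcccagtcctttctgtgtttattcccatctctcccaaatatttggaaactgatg
ANGPTL4 (chr19:8363905-8364204, plus strand): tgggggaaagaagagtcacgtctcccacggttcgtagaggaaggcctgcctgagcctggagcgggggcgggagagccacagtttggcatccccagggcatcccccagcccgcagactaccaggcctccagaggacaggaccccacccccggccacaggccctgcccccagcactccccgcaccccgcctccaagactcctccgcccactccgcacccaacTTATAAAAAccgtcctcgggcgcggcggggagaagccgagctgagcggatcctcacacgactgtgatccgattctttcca
ACADM (chr1:75724459-75724758, plus strand): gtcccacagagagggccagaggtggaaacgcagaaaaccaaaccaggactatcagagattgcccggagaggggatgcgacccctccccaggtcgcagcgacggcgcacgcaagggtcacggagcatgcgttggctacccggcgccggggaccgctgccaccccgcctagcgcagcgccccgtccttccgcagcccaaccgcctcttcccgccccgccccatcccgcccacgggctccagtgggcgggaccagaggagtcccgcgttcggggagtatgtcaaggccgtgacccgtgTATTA
Of the 2 PPARA promoters in the table, the one shown is 85.7% G or C, and 99.8% of the 35116 promoters in the table have a lower share. Its longest A or T run is 3 bases. The other, at chr22:46150538-46150837, is 86.7% G or C with a longest run of 2 bases. The PPARD promoter is 70.3% G or C, with a longest run of 6 bases, which is also the median over all promoters. The 6 PPARG promoters range from 41.0% to 56.7% G or C, below the median of 58.7%, and their longest runs are 7 to 10 bases. Runs of at least 10 bases occur in 20.9% of all promoters. The promoters of ANGPTL4 and ACADM are 66.3% and 68.7% G or C, with longest runs of 9 and 5 bases. The CPT1A promoter lies below the median in its share of G or C, and its longest run is 10 bases. The letters of the PPAR binding site, AGGTCANAGGTCA on either strand, occur in 8 of the 35116 promoters and in none of these 16. The half-site AGGTCA, searched on both strands (the other strand reads TGACCT), occurs in 13.8% of all promoters. Among the 9 genes it was found at 3 of the 6 PPARG starts, 2 of which lie so close that they share the same copy, and at the first PPARG start shown it overlaps the last base of the capital run. A match or its absence in this window says nothing about what binds there.

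PPARA, the receptor best known for turning on fatty acid oxidation, was the lowest of the 3 receptors in both groups. Its level was 8.43, 9.46 and 6.57 FPKM in shNC replicates 1 to 3 and 3.05, 4.79 and 3.75 FPKM in shHMGA1 replicates 1 to 3. The groups did not overlap. The log2 fold change was -0.91 (SE 0.16, limma adjusted p = 0.00813), and it was -0.79 without shHMGA1 replicate 1. The size on this scale depends on the pseudocount, with -0.57 at a pseudocount of 5 and -1.07 at 0.1, since PPARA is low enough for the added value to weigh. The gene lies on chromosome 22 from 46150521 to 46243756 (hg38, GENCODE 29), and none of its exons overlaps another gene.

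PPARG, the receptor that drives fat cell formation and is abundant in colon, varied little among the controls, at 20.17, 19.61 and 20.28 FPKM. It was at 9.07, 14.74 and 11.16 FPKM in shHMGA1 replicates 1 to 3. The knockdown libraries were all below the controls but spread far more, with an SD of 2.87 against 0.359 FPKM. The log2 fold change was -0.76 (SE 0.15, limma adjusted p = 0.011), and -0.60 without shHMGA1 replicate 1, the lowest library. In the knockdown libraries PPARA and PPARG had the same order as HMGA1 itself, lowest in replicate 1 and highest in replicate 2. RXRA, which was higher in the knockdown, had this order too, whereas PPARD, ANGPTL4 and PDK4 were lowest in replicate 2. These are 3 libraries, and the relation was not tested.

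PPARD, the receptor found in most tissues, was at 19.07, 19.42 and 19.98 FPKM in the controls and at 15.08, 14.26 and 15.02 FPKM in the knockdown. The groups did not overlap, and the SD was 0.459 FPKM in the controls and 0.457 in the knockdown. On the log2 scale it changed by -0.38 (SE 0.05, limma adjusted p = 0.00365). It lies on chromosome 6 from 35342558 to 35428191 and PPARG on chromosome 3 from 12287368 to 12434356, and neither shares exons with another gene. Exact permutation tests of the FPKM of each receptor gave p = 0.1 (two-sided, n = 3 against 3), the smallest this design allows.

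The 3 receptors added up to 47.7 ± 0.83 FPKM in the controls and 30.3 ± 3.31 FPKM in the knockdown (SD, n = 3 each), or 63.6%. The sums did not overlap (exact permutation test, two-sided p = 0.1; this sum was chosen after the values were seen). PPARG and PPARD made up about equal shares of the control sum, at 42.0% ± 1.45 and 40.9% ± 1.52, and PPARA the remaining 17.1% ± 2.79 (SD, n = 3). In the knockdown PPARD made up 49.3% ± 6.67, PPARG 38.1% ± 5.18 and PPARA 12.6% ± 1.48. These shares overlapped between the groups. The share of PPARA was lower by 4.43 percentage points in the knockdown (exact permutation test, two-sided p = 0.2, n = 3 against 3), and the knockdown library with the largest share, at 14.2%, lay above the control library with the smallest, at 14.0%.

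**Figure D2:**
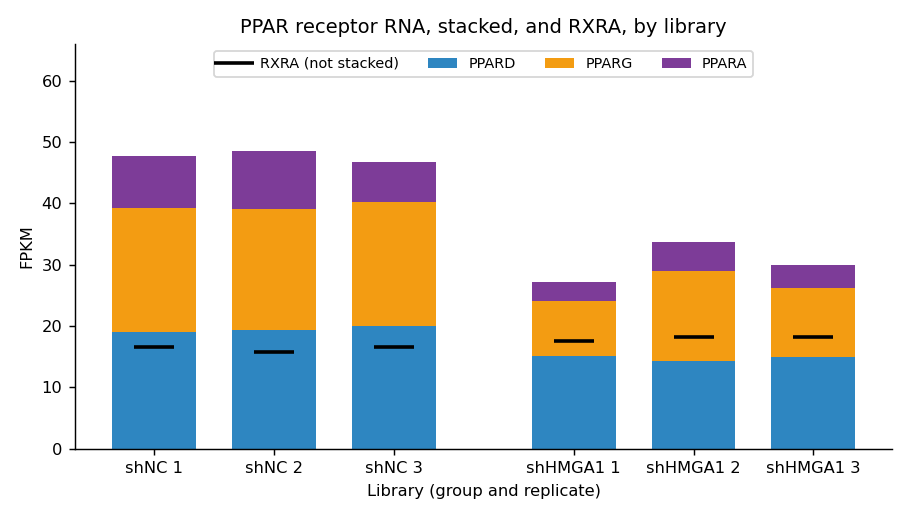
FPKM of PPARD, PPARG and PPARA stacked for each library, with the level of RXRA drawn as a black line that is not part of the stack. The stacks reach 46.8 to 48.5 FPKM in the controls and 27.2 to 33.8 in the knockdown, while RXRA lies at 15.8 to 18.2 in all 6.

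RXRA, the partner that PPARs need to bind DNA, did not fall with them. It was at 16.58, 15.76 and 16.55 FPKM in the controls and at 17.57, 18.20 and 18.15 FPKM in the knockdown. Every knockdown library was above every control library, by a small margin. On the log2 scale the difference was 0.13 (SE 0.05, 95% interval 0.01 to 0.26, limma adjusted p = 0.0936) and did not pass. The 3 PPARs together stood at 2.93 ± 0.132 times the RXRA level in the controls and 1.68 ± 0.157 times in the knockdown (SD, n = 3; exact permutation test, two-sided p = 0.1; chosen after the values were seen).

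PPARGC1B, a coactivator of the PGC-1 family that promotes mitochondrial oxidation, was the member with the smallest difference. It was at 2.40, 2.42 and 2.03 FPKM in the controls and at 2.39, 2.41 and 2.06 FPKM in the knockdown. The groups overlapped fully. The difference on the log2 scale was 0.0019 (SE 0.10, 95% interval -0.24 to 0.24, limma adjusted p = 0.991). Its relatives differed: PPARGC1A was at 0.01 FPKM or less in every library, whereas PPRC1, the third member of the family, rose from 17.6 ± 0.461 to 28.6 ± 4.49 FPKM (log2 fold change 0.66, limma adjusted p = 0.00629).

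ANGPTL4, a secreted inhibitor of lipoprotein lipase that PPARs, and also low oxygen, turn on, had the largest change of the 9 genes. It was at 16.78, 17.14 and 18.48 FPKM in the controls and at 7.23, 4.94 and 6.96 FPKM in shHMGA1 replicates 1 to 3. The groups were far apart. The lowest library was shHMGA1 replicate 2, the knockdown library in which PPARA and PPARG were highest and PPARD was lowest. These are 3 libraries, and no relation to the receptors was tested. The log2 fold change of ANGPTL4 was -1.34 (SE 0.13, limma adjusted p = 0.00121), and -1.42 without shHMGA1 replicate 1. Only 0.51% of the genes tested had a lower log2 fold change. ANGPTL4 lies on chromosome 19 from 8363289 to 8374373, and its exons overlap the antisense gene RAB11B-AS1 on the other strand, which was at 2.38 FPKM in the controls and 2.45 in the knockdown.

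Genes of the response to low oxygen were measured beside ANGPTL4. Of 19 tested genes of a hypoxia list that does not hold ANGPTL4, 11 fell and 1, CA9, rose, with a median log2 fold change of -0.50 (all genes tested: 12.3% fell, median 0.02). The transporters SLC2A1 and SLC2A3 were at log2 fold changes of -0.94 and -1.24, NDRG1, a stress-induced protein, at -1.03 and ANKRD37 at -2.05 (limma adjusted p of each under 0.05). VEGFA, the angiogenic growth factor (log2 fold change -0.16, adjusted p = 0.0792), and PDK1, the PDK kinase induced by low oxygen (-0.12, adjusted p = 0.562), did not pass. Without shHMGA1 replicate 1, PDK1 was called lower. It was at 7.82 FPKM in that library and at 4.89 and 5.48 in shHMGA1 replicates 2 and 3. The 11 were 6 without shNC replicate 1 or shHMGA1 replicate 3 and 7 without shNC replicate 3. Their part in the change of ANGPTL4 was not tested. CA9 is named after its value was seen. It was under 1 FPKM in every control library, so it met the mean required for testing only through the knockdown libraries.

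PDK4, the kinase that switches off pyruvate dehydrogenase when fatty acids are burned, was the least abundant of the 9. It was at 1.71, 1.66 and 1.63 FPKM in the controls and at 1.15, 0.92 and 1.37 FPKM in the knockdown. Every knockdown library was below every control library. The log2 fold change was -0.32 (SE 0.12, 95% interval -0.60 to -0.03, limma adjusted p = 0.0894) and did not pass. At this level the scale matters, and the log2 fold change was -0.52 at a pseudocount of 0.1 (adjusted p = 0.101) and -0.12 at 5 (adjusted p = 0.0798). The authors' deposited table gave PDK4 a log2 fold change of -0.55 with an adjusted p of 0.0192. PDK2 made up most of the PDK RNA, at 60.6% ± 1.61 in the controls and 67.2% ± 3.08 in the knockdown, and PDK4 4.47% ± 0.133 and 3.09% ± 0.661 (SD, n = 3). The share of PDK4 was lower in each knockdown library (exact permutation test, two-sided p = 0.1).

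CPT1A, the outer membrane carnitine palmitoyltransferase that commits long-chain fatty acids to mitochondria, was the most abundant member in the controls. It was at 34.46, 36.44 and 36.30 FPKM there and at 32.31, 30.50 and 28.92 FPKM in the knockdown. The groups did not overlap, but the difference was small. The log2 fold change was -0.22 (SE 0.06, limma adjusted p = 0.0294). This call was kept without shHMGA1 replicate 1 (adjusted p = 0.0162) and lost without any of the other 5 libraries: the adjusted p was 0.0618, 0.0992 and 0.0817 without shNC replicates 1, 2 and 3, and 0.0664 and 0.0947 without shHMGA1 replicates 2 and 3. Its log2 fold change stayed between -0.26 and -0.18.

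The neuronal form CPT1C fell from 14.9 ± 1.86 to 9.18 ± 1.90 FPKM (log2 fold change -0.65, limma adjusted p = 0.0184), a call lost with shNC replicate 2 or 3 or shHMGA1 replicate 3 left out (adjusted p of up to 0.0669). The muscle form CPT1B stood at 6.93 ± 0.457 and 7.39 ± 1.39 FPKM (log2 fold change 0.07, adjusted p = 0.706). CPT1A made up 62.2% ± 1.22 of CPT1 RNA in the controls and 64.8% ± 1.71 in the knockdown (SD, n = 3; exact permutation test, two-sided p = 0.1). The difference between the changes of CPT1C and CPT1A was not tested.

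ACADM, the dehydrogenase that starts each round of medium-chain fatty acid oxidation, was the member that rose. It was at 31.92, 31.39 and 31.02 FPKM in the controls and at 40.32, 41.16 and 44.33 FPKM in the knockdown. The groups were well apart. Its log2 fold change was 0.40 (SE 0.05, limma adjusted p = 0.00297). ACADM lies on chromosome 1 from 75724347 to 75787575, and some of its exons overlap RABGGTB on the same strand, a more abundant gene at 92.6 FPKM in the controls and 101 in the knockdown, so reads in the shared stretch cannot be assigned to either with certainty.

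**Figure D3:**
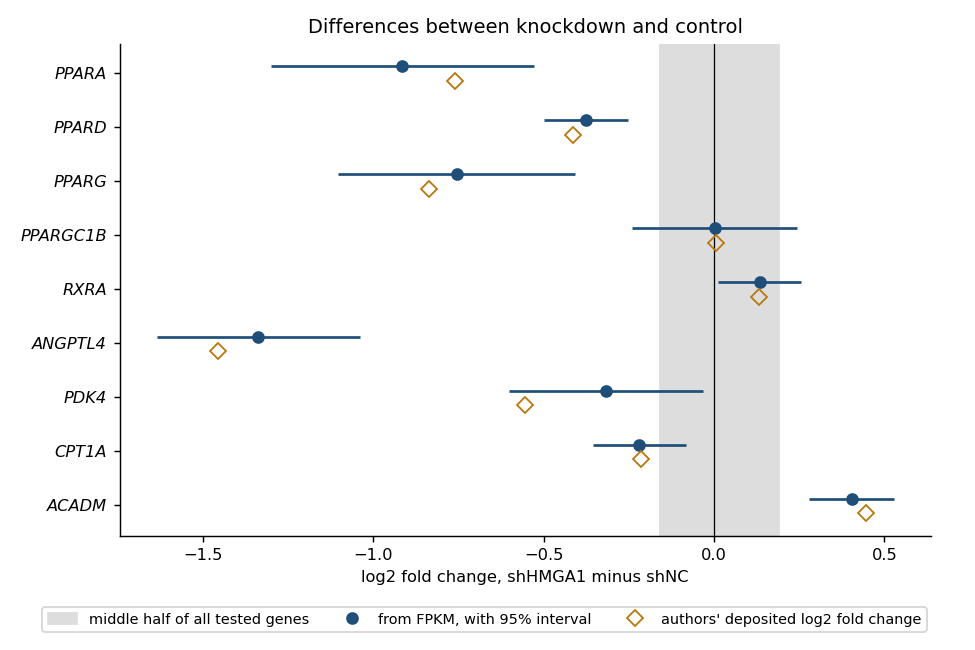
Log2 fold changes of the 9 genes, shHMGA1 minus shNC, from log2(FPKM + 1) with 95% intervals (filled points) and as the authors' deposited table gives them (open diamonds), over a grey band from -0.16 to 0.19 that holds the middle 50% of all genes tested. ANGPTL4 lies lowest at -1.34 and ACADM highest at 0.40.

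The authors' deposited table, whose test is not named in the labels or headers, had the same sign for each of the 9 genes. In the authors' deposited table the adjusted p was under 0.05 for 6 that were lower (16.7% of the genes with an adjusted p there) and 1 that was higher (17.5%). The authors' deposited table put PPARA at -0.76, PPARG at -0.84, PPARD at -0.41, ANGPTL4 at -1.46, CPT1A at -0.21 and ACADM at 0.45 as log2 fold changes. Its group levels for the 9 genes ran from 110 for PDK4 in the knockdown to 4616 for CPT1A in the controls, with PDK4 the lowest in both groups. ANGPTL4 was the member the authors' deposited table marked as down-regulated, a mark it gave to 372 genes, with 81 marked as up-regulated.

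The order of the levels changed with the knockdown. In the controls, by FPKM, it was CPT1A, ACADM, PPARG, PPARD, ANGPTL4, RXRA, PPARA, PPARGC1B and PDK4, and PPARG and PPARD were the neighbours whose libraries overlapped. In the knockdown ACADM stood above CPT1A, RXRA came next, above each PPAR, and ANGPTL4 had dropped below all but PPARA, PPARGC1B and PDK4. PPARD and PPARG again overlapped.

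Among the genes most like PPARA over the 6 libraries were RPL32P29, a ribosomal protein pseudogene whose reads may come from its parent gene (Pearson r = 0.995), the acid ceramidase ASAH1 (0.994) and the cytidine deaminase APOBEC3G (0.992). Those most like ANGPTL4 were CNN3, an actin-binding protein (0.999), CLIP2, a microtubule-binding protein (0.997), and the amyloid precursor protein APP (0.996). The 6 libraries fall into 2 groups, so any gene that differs between them scores high: of 9586 genes compared, 146 had r over 0.95 with PPARA and 440 with ANGPTL4.

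The 9 lists of other genes, with the hypoxia list among them, went both ways. Outside the 9 genes they held 149 genes of the table, of which 121 were tested. Of these, 16 rose (13.2%) and 20 fell (16.5%), near the 16.1% and 12.3% of all genes tested. Among those that fell, 11 belong to the hypoxia list, so the pooled share does not describe the PPAR lists alone. The 16 were 8 without shNC replicate 1 and 9 with shNC replicate 2 or shHMGA1 replicate 2 or 3 left out. The 20 were 11 without shNC replicate 1, 9 without shNC replicate 2 or 3 and 8 without shHMGA1 replicate 3.

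Of 11 tested nuclear receptors that pair with RXR or compete at similar sites, NR2F2 fell and NR2F1 rose. NR2F2 (COUP-TFII), a repressor that binds the same half-sites, went from 18.3 ± 0.621 to 10.8 ± 0.769 FPKM (log2 fold change -0.71, limma adjusted p = 0.00121), and its close relative NR2F1 from 32.7 ± 0.791 to 44.3 ± 4.79 FPKM (0.42, adjusted p = 0.00904). RXRB, the other retinoid X receptor at a testable level, was at 15.05 ± 0.244 and 14.3 ± 1.19 FPKM (log2 fold change -0.07, adjusted p = 0.472), and the liver X receptors NR1H2 (-0.08) and NR1H3 (-0.02) did not pass. A further receptor passed in each direction in 1 of the leave-one-out fits: 2 rose without shHMGA1 replicate 1 and 2 fell without shHMGA1 replicate 2.

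Of 17 tested coregulators, 4 rose and 1 fell. Beside PPRC1, the corepressor NCOR1 (log2 fold change 0.37), the deacetylase SIRT1 (0.25) and the corepressor NRIP1 (0.25) rose, and CITED2 (-0.24; named after its value was seen) fell. The authors' deposited table gave NCOR1 a log2 fold change of -0.0034 (adjusted p = 0.982), so its rise rests on the FPKM values. PPRC1 passed with any library left out. The count of 4 came to 1 with shNC replicate 1 or 2 or shHMGA1 replicate 3 left out, and to 2 with shNC replicate 3 or shHMGA1 replicate 2 left out. CITED2 did not pass without any library other than shHMGA1 replicate 1, and 3 coregulators fell without that one.

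Other genes known as PPAR targets also split. Of 14 tested, the fatty acid transport proteins SLC27A4 (log2 fold change 0.36) and SLC27A2 (0.29) and the fatty acid binding protein FABP5 rose, the uncoupling protein UCP2 (-0.48, with overlapping groups) and the acyl-CoA synthetase ACSL1 (-0.24; named after its value was seen) fell, and 9 did not pass. FABP5, which carries fatty acids to PPARD, went from 361 ± 1.39 to 444 ± 30.8 FPKM (log2 fold change 0.29, limma adjusted p = 0.00983). The lipid droplet protein PLIN2, a target of all 3 receptors, was at 17.3 ± 0.852 and 19.9 ± 0.965 FPKM (log2 fold change 0.19, adjusted p = 0.0623). The transporter CD36 and the fat cell target FABP4 were under 1 FPKM in every library. The 3 that rose were 1 without shNC replicate 1 or shHMGA1 replicate 2. Of the 2 that fell the count was 1 in the same fits, and 0 with shNC replicate 2 or 3 or shHMGA1 replicate 3 left out.

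The list of mitochondrial fatty acid oxidation had calls in both directions. Of its 23 tested genes, which leave out CPT1A and ACADM, 5 rose and 2 fell, with a median log2 fold change of -0.0017. IVD, of leucine breakdown, rose from 22.6 ± 1.07 to 30.5 ± 2.97 FPKM (log2 fold change 0.41, limma adjusted p = 0.0097), and ACAD9, of the same acyl-CoA dehydrogenase family as ACADM, from 28.7 ± 0.933 to 34.6 ± 0.733 FPKM (0.26, adjusted p = 0.00966). The thiolase ACAT1 (0.32), the isomerase ECI1 (0.29) and HADH (0.22, adjusted p = 0.0326) rose with them. The 2 that fell were ACAD11 (-0.24, adjusted p = 0.0223) and ECI2 (-0.21, adjusted p = 0.0405). Where in the cell the proteins of these genes lie was not measured. HADH, ACAD11 and ECI2 are named after their values were seen. The long-chain dehydrogenase ACADVL (0.09, adjusted p = 0.324) and the subunits of the trifunctional protein, HADHA (-0.04, adjusted p = 0.622) and HADHB (-0.12, adjusted p = 0.142), did not pass. IVD and ACAD9 passed with any library left out. The count of 5 came to 3 with shNC replicate 3 left out and to 2 with any other library but shHMGA1 replicate 1 left out. The count of 2 came to 1 with shNC replicate 1 or shHMGA1 replicate 1 or 2 left out, and otherwise to 0.

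In the peroxisomal list, 12 of 16 tested genes had a log2 fold change below 0, as did 46.7% of all genes tested. Of the 16, HSD17B4, the bifunctional enzyme of the pathway, was the 1 that passed, from 77.6 ± 1.45 to 60.7 ± 6.72 FPKM (log2 fold change -0.36, limma adjusted p = 0.0175). That call was lost without shNC replicate 1, 2 or 3 (adjusted p of up to 0.066). The list gave 1 higher without shHMGA1 replicate 1, and 2 lower without shHMGA1 replicate 1 or 2.

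Around PDK4, DLAT, a core subunit of the pyruvate dehydrogenase complex, rose from 33.3 ± 1.06 to 43.0 ± 0.689 FPKM (log2 fold change 0.36, limma adjusted p = 0.00302), and the other 12 tested genes of the list did not pass. Without shHMGA1 replicate 1, 2 rose and 2 fell. Around CPT1A, 9 genes of the carnitine route were tested, and CPT1C fell and ACACA rose. ACACA makes malonyl-CoA, a building block of fatty acids and an inhibitor of CPT1. Its log2 fold change was 0.47 (limma adjusted p = 0.00198), whereas the authors' deposited table had -0.25 for it (adjusted p = 4.04e-06). The direction of ACACA thus differs between the 2 sources, and the cause was not tested. None fell in the fits that lost the CPT1C call.

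Around ANGPTL4, the other 6 angiopoietin-like genes in the table were under 1 FPKM in every library. MGLL, the lipase that splits monoglycerides, fell from 1.73 ± 0.279 to 0.773 ± 0.181 FPKM (log2 fold change -0.62, limma adjusted p = 0.0167), and 4 other tested genes of lipase control did not pass. MGLL was under 1 FPKM in every knockdown library, so it met the mean required for testing only through the controls, and its call is a description. The MGLL call was lost without shNC replicate 2 or shHMGA1 replicate 3 (adjusted p of up to 0.0621).

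**Figure D4:**
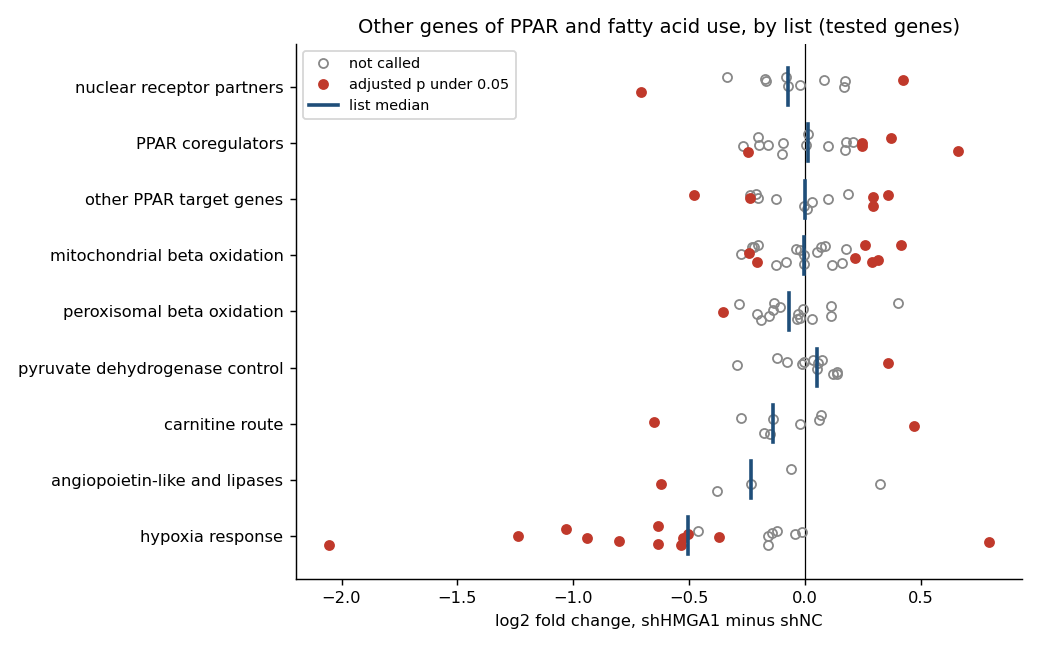
Log2 fold change, shHMGA1 minus shNC, of every tested gene in the 9 lists around the PPAR genes, with called genes filled in red, the others open and the list median as a blue bar. The hypoxia median lies at -0.50, and the medians of the other lists lie between -0.23 and 0.05.

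The calls of the receptors and of ANGPTL4 and ACADM did not turn on any setting tried. PPARA, PPARD, PPARG, ANGPTL4 and ACADM each passed in all 17 alternatives, which covered the pseudocount, the filter, scaling, the variance model, a replicate block and each library left out. With a library left out, the adjusted p reached 0.0409 for PPARA, 0.0477 for PPARG, 0.0211 for PPARD, 0.0116 for ANGPTL4 and 0.0185 for ACADM. RXRA passed in none of 17 and PPARGC1B in none of 16. Without shHMGA1 replicate 1, the log2 fold change was -0.39 for PPARD, 0.43 for ACADM, 0.15 for RXRA, -0.32 for PDK4 and -0.021 for PPARGC1B, and the first 2 of these passed.

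**Figure D5:**
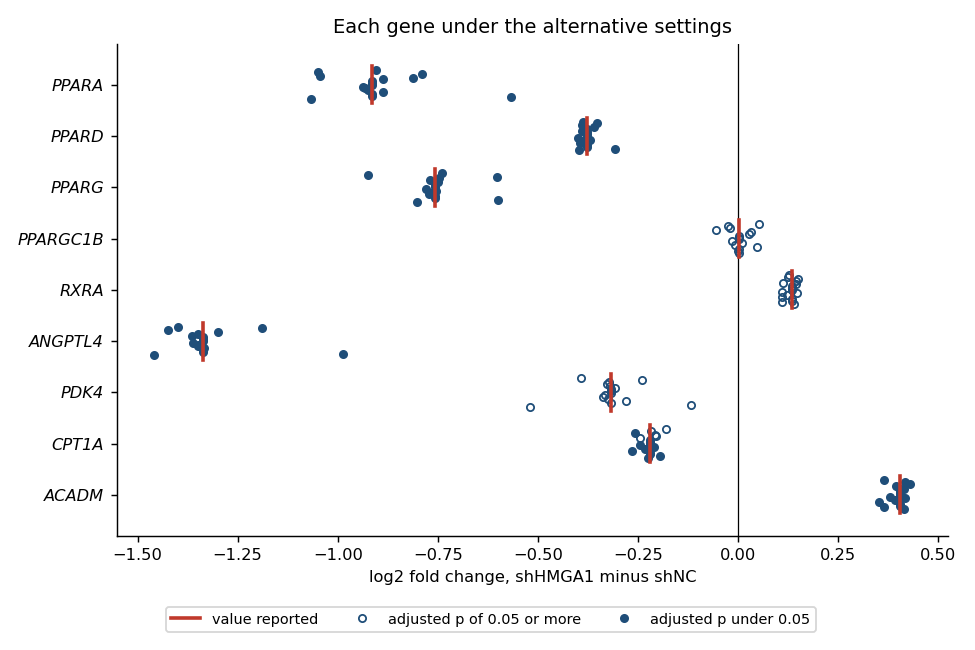
Log2 fold change of each of the 9 genes under the alternative settings, filled where the adjusted p was under 0.05 and open where it was not, with the reported value as a red bar. The points of PPARA range from -1.07 to -0.57 and those of ANGPTL4 from -1.46 to -0.99, and all of them are filled.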

How the data were processed

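Poly-A RNA of 6 libraries was sequenced on an MGI instrument, per the labels' protocols. Reads were placed on hg38 according to the submitters' processing notes. The aligner, the counter and its strand setting are not named in the labels or file headers. Per the file headers, the authors deposited FPKM for each library. The same deposited table holds the authors' mean level per group (a signal on a scale that is not named), the authors' log2 fold change and the authors' p-value with its adjusted form.

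Here log2(FPKM + 1) was compared between the groups in limma 3.58.1 (R 4.3.3; moderated by eBayes, with the trend option, two-sided). The 14304 genes averaging 1 FPKM or more across the libraries were tested, with Benjamini-Hochberg adjustment over all of them and a threshold of 0.05. Differences are shHMGA1 minus shNC, and they understate the change of low genes. Shares and sums were tested by exact permutation (scipy 1.17.1, Python 3.11.15). On simulated data for this comparison, with 200 of 14304 genes changed, 89% of log2 changes of 1 and 65% of those of 0.5 were recovered, and 4 unchanged genes were called.

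The 9 genes, the lists and the tests were chosen with earlier results of these data known. The rule for named genes took all 9, HMGA1, up to 4 called genes of each list by size of change, the PDK and CPT1 genes, and the 3 genes with an established symbol and a mean of at least 5 FPKM that correlated best with PPARA and with ANGPTL4. Markers and uncalled list genes were picked for their known role after their values were seen. Depth was estimated from genes at 0 in at least 2 libraries, using values of at least 0.2 FPKM. Gene coordinates come from GENCODE 29 and promoters from RefSeq. Listed genes with no row were not analysed here.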

Additional observations from a re-analysis of the deposited data

How the results depend on the processing

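PPARA, PPARD, PPARG, ANGPTL4 and ACADM kept their direction and their call in all 17 alternatives, and the shares kept their direction in all of theirs. CPT1A was not called with no filter on low values (log2 fold change -0.22, adjusted p = 0.0544, where more genes are tested) or with the replicate number as a block (-0.22, adjusted p = 0.0651), and ran from -0.26 to -0.18 with a library left out. PDK4 was called without a mean-variance trend (-0.32, adjusted p = 0.0382; the cause was not tested). PPARGC1B, near 0, changed sign with median-of-ratios scaling (-0.0066) and without mitochondrially encoded genes (-0.016), and ran from -0.055 to 0.053 with a library left out; CPT1B ran from -0.052 to 0.19. Of the genes in the 9 lists, 10 rose and 12 fell with no filter, and 8 to 19 rose and 8 to 26 fell with a library left out, against 16 and 20. Over all genes, 2307 rose and 1758 fell, against 1478 and 1347 with no filter and 1094 to 2621 and 947 to 1962 with a library left out.

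No pairing of the libraries by replicate number was seen in the values. Deviations from the group means correlated at 0.02, -0.04 and 0.04 between libraries of the same number, and libraries 1 and 2 did not match their own number best. With 3 libraries per group, these values cannot show whether libraries of the same number were grown or prepared together. The replicate block gave 4 lower and 1 higher of the 9 genes, 12 higher and 17 lower of the list genes and 1913 higher and 1495 lower of all genes. In the block fit the log2 fold changes were unchanged by construction, and it changed the call of no member other than CPT1A. Depth in reads is unknown, so no counting error can be given, and PDK4 and PPARGC1B were the lowest of the 9 by FPKM.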
